A study of Mus musculus with 4 samples.

Results

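Mammosphere cells were compared with bulk cells of MMTV-Myc, a mouse mammary tumour cell line whose Myc transgene is controlled by the promoter of the mammary tumour virus MMTV. The comparison rests on 1 library of each kind, 2 of the 4 libraries in the series. The series title names Cbx8, which brings a chromodomain to the Polycomb complex PRC1, and Wdr5, a shared subunit of the histone H3 lysine 4 methyltransferase complexes, in mammary tumorigenesis. The libraries not used here compared cells with and without a Cbx8 hairpin. Genes were kept where the authors' table gave a usable estimate and at least 1 FPKM (a fragment count scaled to the length of the transcript and to the library) in either library, which left 11603 of 22440 rows. Rows that the authors judged too low to test were kept, and the 29 failed rows and 3 rows with too many fragments were dropped.

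Bulk cells (labelled day 0) were grown in DMEM/F12 with 2% serum and insulin. Mammosphere cells (labelled day 20) were grown on ultra-low attachment plates in serum-free DMEM/F12 or MEBM with EGF, bFGF and the Gem21 supplement, and were split to single cells with trypsin every 4 days. Both are of the MMTV-Myc line, and the labels give the genotype of both as wild type. Medium, serum, growth factors, attachment and the days of passage all differed between the libraries, so none of these can be told apart from the others. With no replicate in either group, every difference below is a difference between 2 libraries, with no test and no estimate of spread. The comparison also covers a single cell line.

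Mammosphere culture selects or maintains cells that survive and divide without a surface to hold. Attached cells bind matrix through integrins, build focal adhesions and tensioned actin fibres, and through them keep the cofactors YAP and MRTF in the nucleus. Serum acts on the same cofactors and switches on immediate early genes within minutes, whereas lipids removed with serum must be made by the cell, under control of the SREBP factors. Sphere-forming fractions of mammary tumours are used as a source of cells with stem-like growth.

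Keratins 8 and 18 were abundant in the bulk library while other epithelial markers were low, and most were lower in the mammosphere library. Of 12 epithelial markers 10 were kept, 7 of them at least 2-fold lower in mammospheres and 1 higher. In mammospheres 5 of the 10 were under 1 FPKM and none was in bulk. Those 5 were kept only through their bulk level, so the direction of their change was fixed by the keeping rule. Krt8 and Krt18, the simple epithelial keratins, were at 334 and 570.4 FPKM in bulk cells and at 5.14 and 58.2 FPKM in mammospheres. Cdh1, encoding E-cadherin, was at 1.04 FPKM in bulk and 0.0135 FPKM in mammospheres. Epcam, an epithelial adhesion protein, was at 1.06 and 0.0908 FPKM. Vim, the mesenchymal filament protein vimentin, was at 3090.0 FPKM in bulk and 1073 FPKM in mammospheres, so it exceeded both keratins in each. The label of an epithelial tumour line was therefore matched by keratins 8 and 18 in the bulk library, while E-cadherin and Epcam lay near or under 1 FPKM in both.

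Markers of other cell types were present in the bulk library and mostly near 0 in the mammosphere library. Of 19 macrophage markers kept, 18 were at least 2-fold lower in mammospheres and 8 were listed at 0 there, among them Tyrobp, Fcer1g and the 3 chains of complement C1q. Their summed level was 404 FPKM in bulk and 109.7 FPKM in mammospheres, where Cd68 alone, a lysosomal protein, was at 101 FPKM against 35.5 in bulk. Without Cd68 the macrophage sums were 369 and 8.45 FPKM. All 15 T and NK cell markers kept were lower, with sums of 146 and 26.1 FPKM and 10 listed at 0 in mammospheres, Cd3e and Gzmb included. Of 16 fibroblast markers 14 were lower, with sums of 572 and 10.2 FPKM, and Postn, Lum and Dpt were at 0 in mammospheres. All 7 endothelial and pericyte markers, all 6 basal and myoepithelial markers, all 3 B cell markers and 2 of 3 granulocyte and mast cell markers were lower as well. No kept marker of these lists was under 1 FPKM in bulk. In mammospheres 17 macrophage, 14 T and NK cell, 14 fibroblast and 6 endothelial and pericyte markers were under 1 FPKM. Such markers were kept only through their bulk level, so the direction of their change was fixed by the keeping rule. None of 3 adipocyte markers was 2-fold apart, with sums of 20.2 and 21.5 FPKM. In bulk RNA, fewer cells of a type and less RNA per cell cannot be told apart, and the part of other cells in the differences below was not tested. Of the 73 members on all lists of other cell types, which also include 2 muscle, nerve or red cell genes, 65 were 2-fold lower, and without them the count of lower genes was 1937 rather than 2002.

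**Figure D1:**
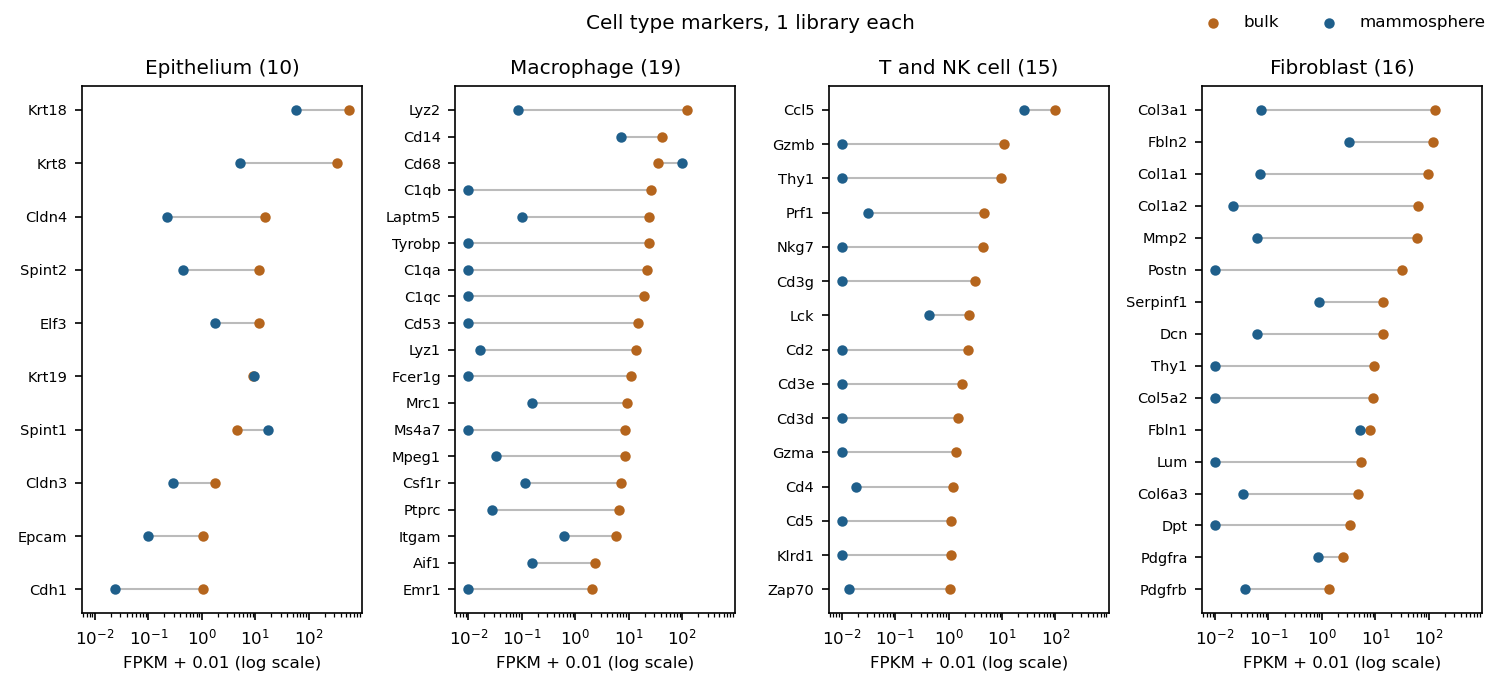
Levels of markers of epithelium, macrophages, T and NK cells and fibroblasts in the bulk (brown) and mammosphere (blue) libraries, as FPKM plus 0.01 on a log axis, 1 row per gene and 1 library per colour. Points at the left edge are listed at 0. Cd68 and Spint1 are the markers shown that were 2-fold higher in mammospheres.

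Far more genes were lower than higher in mammospheres. On the scale log2((mammosphere FPKM + 1)/(bulk FPKM + 1)), 411 members were at least 2-fold higher (3.54% of members) and 2002 at least 2-fold lower (17.3%). The addition of 1 FPKM understates the change of low genes. A member under 1 FPKM in 1 library was kept only through the other, so its direction was fixed by the keeping rule. There were 1135 such members in mammospheres and 322 in bulk, and the same limit holds within every list below. At a 4-fold limit the counts were 61 and 643, at 16-fold they were 3 and 116, and at 64-fold they were 0 and 17. The median change over all members was −0.24, and 65.3% of members had a negative change. Higher genes held 0.78% of the FPKM sum in bulk and 3.78% in mammospheres, whereas lower genes held 26.3% in bulk and 9.39% in mammospheres. Every FPKM value is relative to its library, so this balance depends on the scaling: higher genes were 17.0% of those 2-fold apart with the deposited values, 29.7% with changes centred on the median gene, 34.5% with upper quartiles set equal and 41.3% with equal sums outside the 100 most abundant rows. Those scalings moved all members up by 0.19, 0.28 and 0.38, and turned the median positive under the last 2 (0.04 and 0.14). Where any of the 3 scalings moved a list's count by more than 1.5 times, its counts under the last of them, the top-100 scaling, are given as top-100 counts. Under that scaling 1032 of all 11603 members were higher and 1465 lower, and top-100 counts are to be read beside these. No list below with a median of 0.5 or more in size changed sign under any of the 3 scalings.

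**Figure D2:**
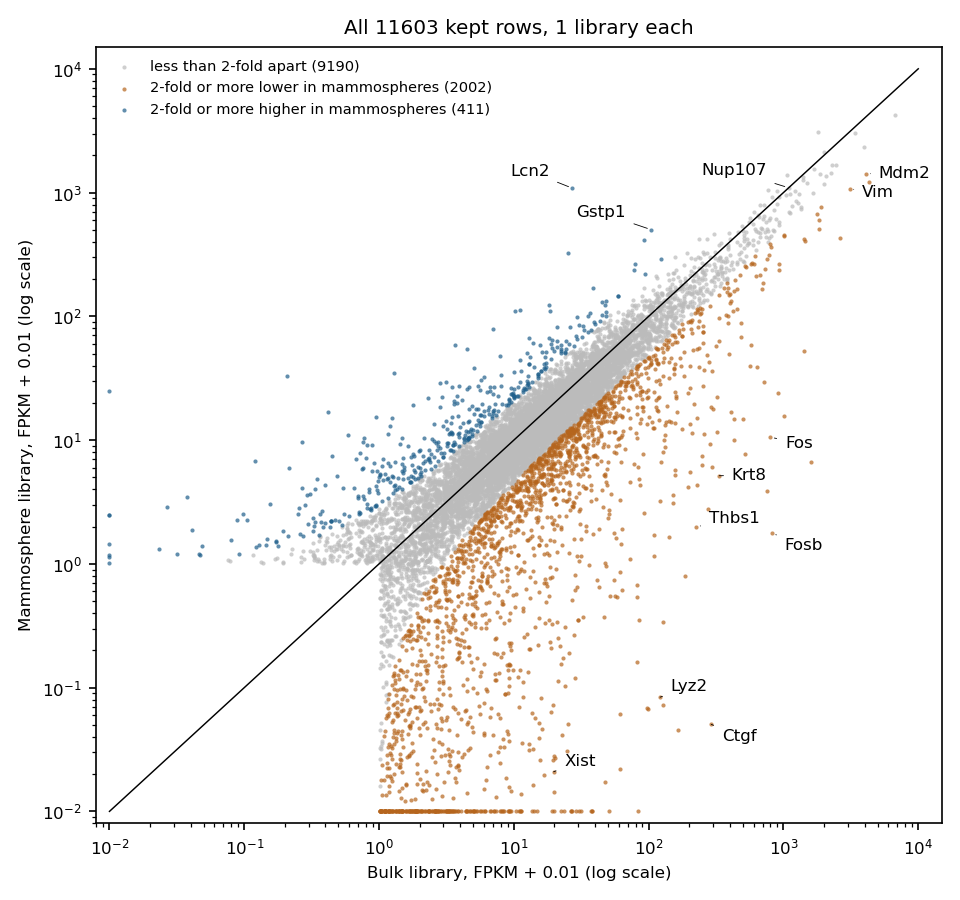
FPKM plus 0.01 in the bulk library (x) and the mammosphere library (y), both log axes, for every member, with the line of equal values. Brown points (2002) were at least 2-fold lower in mammospheres and blue points (411) at least 2-fold higher. Brown points reach far from the line, down to values listed at 0 on the lower edge, whereas Lcn2 is the highest blue point, at 1084 FPKM in mammospheres.

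The authors tested 4045 members and left 7558 untested, and the shares were close. Among tested members 151 were 2-fold higher (3.73%) and 654 lower (16.2%). Among untested members 260 were higher (3.44%) and 1348 lower (17.8%). Levels of untested members did not exceed 25.2 FPKM in bulk or 18.5 FPKM in mammospheres. The authors' test had a single library per group, so its q-values hold no spread between replicates. At q under 0.05 the authors' deposited table called 70 members higher and 411 lower.

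Untested rows did not exceed 18.5 FPKM in mammospheres, so the largest increases among them could only be of genes low in bulk. Aqp8, a water and hydrogen peroxide channel, was at 0.407 FPKM in bulk and 16.9 FPKM in mammospheres. Sele, the adhesion receptor E-selectin, was at 0.938 and 15.4 FPKM. Krt23, a type I keratin, was at 0.110 and 6.75 FPKM, the 1 keratin that was higher. Others served metabolism. Fads6, a member of the fatty acid desaturase family, was at 0.257 and 9.59 FPKM. Acat3, an acetyl-CoA acetyltransferase, was at 1.23 and 15.2 FPKM. Bdh1, the mitochondrial ketone body dehydrogenase, was at 0.756 and 9.61 FPKM. Rragd, a Rag GTPase that ties lysosomal amino acid supply to mTORC1, was at 0.203 and 5.93 FPKM. Alpl, the tissue-nonspecific alkaline phosphatase, was at 1.20 and 13.1 FPKM.

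The largest decreases among untested rows included secreted and leukocyte products beside other genes. Arg1, arginase 1, was at 24.8 FPKM in bulk and 0.0205 FPKM in mammospheres. Sphk1, which makes sphingosine 1-phosphate, was at 22.7 and 0.0316 FPKM. Nr4a3, an orphan nuclear receptor, was at 19.7 and 0.00440 FPKM. Pmepa1, an inhibitor of TGF-beta signalling, was at 22.4 and 0.145 FPKM. These 4 were picked from the largest decreases of untested rows. Their bulk levels near the top of such rows and low values in mammospheres therefore follow from that choice. In all, 108 members with a single regular name had at least 5 FPKM in bulk and under 0.1 FPKM in mammospheres. Of these, 23 were on a marker list of another cell type, with basal and myoepithelial markers not counted. The lists are short, so genes of other cells may be among the rest, and their part was not tested. No member with a single regular name had the reverse. Among all members the reverse held only for Snord43, a small nucleolar RNA listed at 0 in bulk and at 24.8 FPKM in mammospheres.

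A block of granzymes was listed at 0 in the mammosphere library. Gzmf was at 38.3 FPKM in bulk cells, Gzmg at 37.9, Gzmc at 30.5 and Gzmd at 26.6 FPKM. These serine proteases are known from the granules of activated killer lymphocytes, and they are close copies of each other, so reads may have been split among them. They exceeded the T and NK markers Gzmb (10.8 FPKM), Prf1 (4.55) and Cd3e (1.80) in the same library. The class II antigen H2-Aa (82.9 FPKM), the protease Ctss (50.8) and the matrix proteins Postn (31.7) and Bgn (28.8) were also listed at 0.

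Attachment genes were partly lower, and integrins lay in both directions. Among 12 integrins 5 were lower and 1 higher (top-100 counts 2 higher and 4 lower, and 3 lower with centred changes), and the median of −0.07 turned positive under each scaling (0.12 to 0.31). Itga5, the fibronectin receptor chain, was at 121 FPKM in bulk and 28.6 FPKM in mammospheres. Itga6 and Itgb3, used as sorting markers of mammary progenitors, were at 38.1 and 9.30 FPKM in bulk and 50.9 and 17.9 FPKM in mammospheres, under 2-fold apart. Itgb2, a leukocyte integrin chain, was at 13.7 and 60.3 FPKM, the 1 higher member, whereas its leukocyte partner Itgam was at 5.79 and 0.604 FPKM. Of 21 focal adhesion genes 7 were lower and none higher (median −0.52, top-100 counts 0 higher and 3 lower). The scaffold Nedd9 was at 48.4 and 0.955 FPKM and zyxin (Zyx) at 251 and 82.9 FPKM, whereas talin 1 (Tln1) was at 47.7 and 49.6 FPKM.

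Contractile genes and the targets of SRF, the factor that MRTF activates when actin is polymerised, were lower in the main. All 9 SRF and MRTF targets kept were 2-fold lower (median −1.73), and 14 of 19 actin and contractile genes were (median −1.17), with none higher in either list. Under the top-100 scaling the counts were 7 and 8. Actg1, cytoplasmic gamma actin, was at 1831 FPKM in bulk and 503 FPKM in mammospheres. Myl9, a regulatory myosin light chain, was at 21.8 and 0.207 FPKM. Rnd3, a small GTPase that loosens actin fibres, was at 48.9 and 4.29 FPKM. Srf itself was at 57.5 and 16.6 FPKM. Of the 19 contractile genes, 15 are on no marker list of another cell type, and 11 of those were lower.

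In the Hippo pathway, several secreted outputs were far lower while YAP was level. The secreted matricellular products Cyr61 and Ctgf were at 1592 and 291 FPKM in bulk and 6.68 and 0.0405 FPKM in mammospheres. The cofactors themselves, Yap1 (42.2 and 44.2 FPKM) and Wwtr1 (46.7 and 48.3), and their DNA partner Tead1 (17.4 and 21.3) were under 2-fold apart. Lats2, an inhibitory kinase, was at 12.5 and 4.06 FPKM, and Tead3 at 5.05 and 1.51 FPKM. Over the 22 pathway genes kept, 8 were lower and none higher (median −0.55, top-100 counts 3 higher and 8 lower).

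Junction genes were lower in part, and beta-catenin was not. Of 20 kept, 11 were 2-fold lower and none higher (median −1.07), and 8 or 9 were lower under the scalings. Dsg2, a desmosomal cadherin, was at 6.23 FPKM in bulk and 0.475 FPKM in mammospheres. Cldn4, a claudin, was at 15.1 and 0.213 FPKM. Pkp2, a desmosomal plakophilin, was at 39.5 and 7.48 FPKM. Ctnnb1, encoding beta-catenin, was at 238 and 294 FPKM. Among 8 keratins kept, 6 were lower (median −2.77), the exceptions being Krt19 (9.08 and 9.65 FPKM) and Krt23. Krt16, a keratin of stressed epithelium, was at 58.6 and 0.532 FPKM.

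Extracellular matrix genes were mostly lower, among fibres and the enzymes that build them. Of 19 collagen genes 17 were 2-fold lower and none higher (median −2.28). In mammospheres 12 of the 19 were under 1 FPKM and none was in bulk, so the keeping rule fixed the direction of those 12. Without the 5 collagen genes that are also fibroblast markers, 12 of 14 were lower (median −1.77). Col1a2, a fibrillar collagen, was at 61.7 FPKM in bulk and 0.0121 FPKM in mammospheres. Col5a3 was at 48.5 and 4.56 FPKM. The basement membrane chains Col4a1 (83.0 and 39.4 FPKM) and Col4a2 (40.8 and 27.5) differed less than the fibrillar chains did. Fn1, fibronectin, was at 124 and 6.61 FPKM, while the laminin chain Lamc1 was at 71.7 and 78.2 and the linker nidogen (Nid1) at 113 and 135 FPKM. Among collagen crosslinking and processing enzymes 9 of 14 were lower (median −1.79), with Lox, lysyl oxidase, at 7.32 and 0.00316 FPKM. Of these 14 enzymes, 4 were under 1 FPKM in mammospheres and none in bulk.

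Proteases and their inhibitors lay in both directions. Of 21 metalloproteinases and inhibitors 10 were lower and 2 higher (median −0.77, top-100 counts 4 higher and 9 lower). Mmp3, stromelysin 1, and Adamts9 were the higher members, at 25.4 and 1.10 FPKM in bulk and 323 and 5.31 FPKM in mammospheres. Timp3, a matrix-bound inhibitor, was at 11.3 and 0.00382 FPKM, and Timp1 at 228 and 54.4 FPKM. In the plasminogen system the receptor Plaur was at 281 and 42.9 FPKM, the activator Plat at 330.3 and 63.1, and the activator Plau at 271 and 166. The inhibitor Serpine2 (protease nexin 1) was at 156 and 304 FPKM. Of the 13 genes of this list 8 were lower and none 2-fold higher (median −2.37, top-100 counts 1 higher and 8 lower), and fibroblast markers on it and on the metalloproteinase list were Serpinf1 and Mmp2.

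Immediate early genes, which are transcribed within minutes of a stimulus, were lower without exception. All 26 genes of the NR4A, EGR and IER list were at least 2-fold lower (median −3.84), and 23 of them under the top-100 scaling. Nr4a1 was at 515 FPKM in bulk and 7.67 FPKM in mammospheres. Egr1, a zinc finger factor, was at 431 and 10.0 FPKM. Arc, known from synapses, was at 197 and 4.20 FPKM. The group spans inducers and brakes. Zfp36, which destabilises inflammatory mRNAs, was at 323 and 22.2 FPKM, and Ppp1r15a, a phosphatase subunit that ends the stress arrest of translation, was at 406 and 16.9 FPKM. Myc had the second smallest difference of the 26, at 815 and 361 FPKM (log2 −1.17). Whether its reads came from the endogenous gene or the transgene cannot be told apart here.

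Among 12 AP-1 and related bZIP genes, 11 were 2-fold lower (median −3.89). Every Jun family member was among them: Jun was at 432 FPKM in bulk and 14.8 FPKM in mammospheres, Junb at 561 and 39.3, and Jund at 299 and 17.9. Fosl1, a Fos relative induced later than Fos itself, was at 154 and 34.1 FPKM. Mafg, a small Maf protein, was the exception, at 20.0 and 21.6 FPKM. Of 11 Krüppel-like factors 7 were lower and none higher (median −1.83). Klf2, a factor of quiescent lymphocytes and endothelium, was at 151 and 3.12 FPKM, and Klf6 at 203 and 13.5, whereas Klf13 was at 10.6 and 9.87 FPKM.

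Ligands, the receptor and a feedback inhibitor of EGF signalling were mostly lower. The mammosphere medium contained EGF, and the ErbB list had 6 of 10 members lower and 1 higher (median −1.64). Egfr, the EGF receptor, was at 8.06 FPKM in bulk and 0.872 FPKM in mammospheres. The ligands Hbegf (229 and 15.2 FPKM), Ereg (133 and 13.9) and Areg (82.1 and 18.5) were lower. Tgfa was the higher ligand, at 5.38 and 17.9 FPKM, and Errfi1, a feedback inhibitor of the receptor, was at 142 and 14.2 FPKM. The medium also held bFGF, and Fgfr1 was at 89.0 and 54.5 FPKM, 1 of only 2 FGF system genes kept.

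Feedback regulators of the ERK pathway were lower in part. Of 21 kept, 10 were lower and 1 higher (median −0.89, top-100 counts 2 higher and 6 lower). Dusp1, a nuclear phosphatase of stress kinases, was at 250.2 FPKM in bulk and 6.33 FPKM in mammospheres. Phlda1 was at 160.1 and 21.7 FPKM. Dusp6, the cytoplasmic ERK phosphatase, and the inhibitor Spry2 lay under 2-fold apart, at 61.0 and 30.04 FPKM in bulk and 61.3 and 19.5 FPKM in mammospheres. Etv5, an ETS factor downstream of ERK, was the higher member, at 18.7 and 44.9 FPKM.

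In the TGF-beta and BMP pathway, the 4 largest differences were in targets and inhibitors. Of 31 genes 15 were lower and none 2-fold higher (median −0.996, top-100 counts 1 higher and 13 lower). The targets Id3 and Id2, which block differentiation factors, were at 293 and 35.8 FPKM in bulk and 6.01 and 0.969 FPKM in mammospheres. Smad7, an inhibitory Smad, was at 26.9 and 0.505 FPKM, and Skil, a nuclear repressor of Smads, at 60.8 and 3.26. Id1 was an exception among these targets, at 101 and 64.3 FPKM.

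Wnt and Hedgehog, Notch, insulin-like growth factor and Eph lists had medians between −0.86 and −0.64. In Wnt signalling 10 of 24 genes were lower and 1 higher, with the ligand Wnt10a at 32.3 and 0.362 FPKM and the higher receptor Fzd4 at 0.327 and 2.17 FPKM. In the Notch list 7 of 26 were lower and 1 higher. Its target Hes1 was at 157 FPKM in bulk and 5.76 FPKM in mammospheres, and the ligand Jag1 was at 11.5 and 2.94, while the ligand Jag2 was at 12.9 and 27.1 FPKM. The receptor Notch1 was at 25.3 and 28.5 FPKM. Among insulin-like growth factor genes, 5 of 12 were lower and 1 higher (top-100 counts 2 higher and 5 lower), with the binding protein Igfbp7 at 81.4 and 0.669 FPKM and the adaptor Irs2 at 27.9 and 3.11. The scavenger receptor Igf2r was that higher gene, at 47.9 and 108 FPKM. Within 26 ephrin and semaphorin genes, 11 lower and 3 higher (top-100 counts 5 higher and 8 lower), members of a single family went opposite ways: Sema7a was at 6.03 and 0.144 FPKM and Sema4c at 5.44 and 27.2 FPKM.

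Inducible chaperones were lower while subunits of the proteasome, which degrades proteins, were under 2-fold apart. Of 18 heat shock genes 13 were 2-fold lower and none higher (median −1.497). Hspb1, a small heat shock protein, was at 1422 FPKM in bulk and 52.3 FPKM in mammospheres. Dnajb1, a co-chaperone of Hsp70, was at 1006 and 15.5 FPKM. Cryab, alpha-B crystallin, was at 322 and 11.7 FPKM. Hsf1, the factor that drives these genes, was at 29.2 and 22.4 FPKM. Hspa1l was at 273 and 2.77 FPKM, but it adjoins the near-identical Hspa1a and Hspa1b, whose rows held too many fragments to be estimated in this table, so its value is uncertain. Of 22 endoplasmic reticulum folding genes 5 were lower and 1 higher (median −0.78, top-100 counts 1 higher and 3 lower), with Dnajb9 at 82.7 and 6.09 FPKM and Sdf2l1 at 22.2 and 50.3 FPKM. None of 30 proteasome subunits was 2-fold apart under any scaling (median −0.01, or 0.17 to 0.41 under the scalings).

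The immune form of the proteasome and antigen presentation were lower. All 20 genes of the list were 2-fold lower (median −2.14), and 17 of them under the top-100 scaling. Psmb9 and Psmb8, inducible catalytic subunits, were at 50.05 and 105 FPKM in bulk and 2.32 and 13.98 FPKM in mammospheres. The transporter chain Tap2 was at 34.6 and 5.81 FPKM. Class I genes kept a high level, with B2m at 1845 and 597 FPKM and H2-K1 at 398 and 128 FPKM. Class II genes did not, with H2-Ab1 at 47.4 and 0.00726 FPKM. Class II genes belong to antigen-presenting leukocytes, whose macrophage markers without Cd68 stood at 369 and 8.45 FPKM summed, and their part here was not tested.

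Inflammatory ligands were mostly lower, with a few strong exceptions. Of 47 chemokines and cytokines 35 were lower and 3 higher (median −2.34). In mammospheres 24 of the 47 were under 1 FPKM and none was in bulk, so the keeping rule fixed the direction of those 24. Cxcl1 and Ccl2, the most abundant, were at 1774 and 1009.9 FPKM in bulk and 669 and 447 FPKM in mammospheres. Ccl7, a monocyte chemokine, was at 63.9 and 0.599 FPKM, and Cxcl10, an interferon-induced chemokine, at 131 and 8.79 FPKM. The 3 exceptions act on neutrophils (Csf3 and Cxcl5) or on lymphocytes and dendritic cells (Ccl20). Csf3, the granulocyte colony-stimulating factor, was at 18.2 and 124 FPKM. Ccl20 was at 2.91 and 22.3 FPKM, and Cxcl5 at 6.99 and 78.7. Macrophage and lymphocyte markers were lower alongside, with the sums given above, and Il1b and Tnf, typical macrophage products, were at 23.2 and 13.03 FPKM in bulk and 0.164 and 0.0249 FPKM in mammospheres.

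Many NF-kappaB pathway genes were lower. Of 23 genes 13 were lower and 1 higher (median −1.64). Tnfaip3 and Nfkbia, inhibitors that are themselves targets, were at 109.5 and 488 FPKM in bulk and 1.71 and 88.0 FPKM in mammospheres. The adhesion receptor Icam1 was at 28.4 and 0.110 FPKM. Ikbke, a noncanonical kinase, was the higher member, at 6.30 and 24.4 FPKM. Among 29 cytokine receptors, STATs and their inhibitors, 17 were lower and none higher (median −1.14, top-100 counts 0 higher and 10 lower). The inhibitor Cish was at 41.5 and 0.724 FPKM and Socs3 at 47.4 and 5.30 FPKM. Interferon-stimulated genes were less uniform, with 14 of 39 lower and 1 higher (median −0.65, top-100 counts 2 higher and 10 lower): Gbp2 was at 129 and 9.92 FPKM, Bst2 at 162 and 166, and Oas3 at 5.78 and 19.5.

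Secreted proteins of innate defence were lower for the most part, with Lcn2 far higher. Lcn2, lipocalin 2, which binds iron-carrying siderophores, had the largest increase of all members, at 27.2 FPKM in bulk and 1084 FPKM in mammospheres. The complement and acute phase list had 17 of 23 lower and 2 higher (median −2.07), or 14 of 20 (median −1.17) without the macrophage markers. In mammospheres 14 of the 23 were under 1 FPKM and none was in bulk, so the direction of those 14 was fixed by the keeping rule. C3, the central complement protein, was at 86.9 and 13.7 FPKM, and Slpi, a secreted protease inhibitor, at 676 and 517 FPKM. Wfdc2, of the same inhibitor family, was at 39.4 and 90.5 FPKM. In the prostaglandin list, Ptgs2, the inducible cyclooxygenase, was at 394 and 49.4 FPKM and the constitutive Ptgs1 at 92.8 and 76.0 FPKM.

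**Figure D3:**
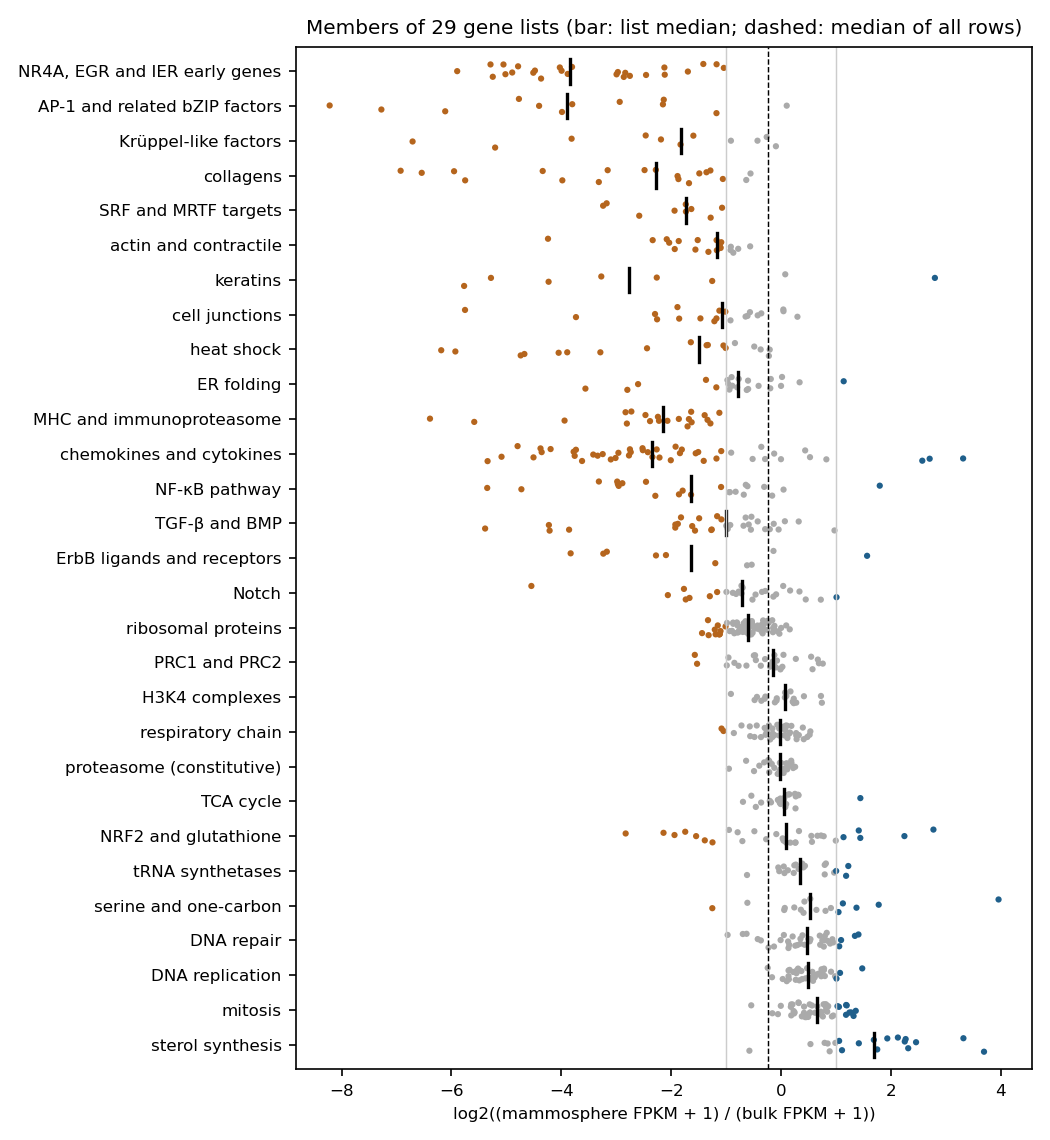
log2 change (mammosphere over bulk, 1 FPKM added to each value) of every kept member of 29 gene lists. Each point is a gene, brown where 2-fold or more lower and blue where 2-fold or more higher, black bars are list medians, and the dashed line is the median of all members (−0.24). Early genes, collagens and antigen presentation lie to the left of the line, and sterol synthesis to the right.

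Enzymes of sterol synthesis were mostly higher. Of 19 enzymes from acetyl-CoA to cholesterol, 13 were 2-fold higher and none lower (median 1.69, or 1.88 to 2.11 under the scalings). Fdps, which makes farnesyl diphosphate, was at 10.2 FPKM in bulk and 111 FPKM in mammospheres. Mvd, of the mevalonate stretch, was at 3.77 and 22.8 FPKM, and Lss, which closes the sterol rings, at 5.66 and 30.8 FPKM. Acat2, which starts the pathway by joining acetyl-CoA units, was at 7.93 and 48.2 FPKM. Ebp, a sterol isomerase, was the 1 enzyme below its bulk level, at 26.6 and 17.5 FPKM.

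In sterol transport, Stard4 and Vldlr were higher, and exporters were lower or level. Stard4, a sterol transfer protein, was at 5.09 FPKM in bulk and 37.9 FPKM in mammospheres. Vldlr, a lipoprotein receptor, was at 2.56 and 13.5 FPKM. Of the 16 genes of SREBP regulation and sterol uptake 4 were higher and 1 lower (median 0.20, top-100 counts 6 higher and 0 lower). The regulators Srebf1 (35.8 and 42.8 FPKM) and Srebf2 (51.5 and 72.6) were under 2-fold apart. Mylip, a ubiquitin ligase under control of LXR, was the lower one, at 17.2 and 6.74 FPKM. Among 10 genes of LXR and sterol efflux 5 were lower and none higher (median −0.98), with the carrier Apoe at 72.9 and 1.08 FPKM and the exporter Abca1 at 7.22 and 0.237 FPKM.

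Fatty acid synthesis genes were level or higher for the most part, and storage and oxidation genes level or lower. Of 25 genes of synthesis, desaturation and phospholipid assembly 6 were higher and 2 lower (median 0.41, top-100 counts 10 higher and 2 lower). Pcyt2, of phosphatidylethanolamine synthesis, was at 11.1 FPKM in bulk and 44.4 FPKM in mammospheres, and Lpin1, a phosphatidate phosphatase, at 3.21 and 12.3 FPKM. Chka, choline kinase, was at 133 and 13.3 FPKM, the largest decrease of the list. Of 24 storage and oxidation genes 7 were lower and 1 higher (median −0.57, top-100 counts 2 higher and 5 lower). Cpt1a, which admits fatty acids to mitochondria, was at 45.0 and 3.96 FPKM. Angptl4, an inhibitor of lipoprotein lipase, was at 85.2 and 0.341 FPKM, and Pdk4, which holds back pyruvate oxidation, at 98.1 and 0.0571 FPKM. These 3 are known targets of PPAR factors, and Ppard, a member of that family, was at 24.96 and 29.1 FPKM.

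**Figure D4:**
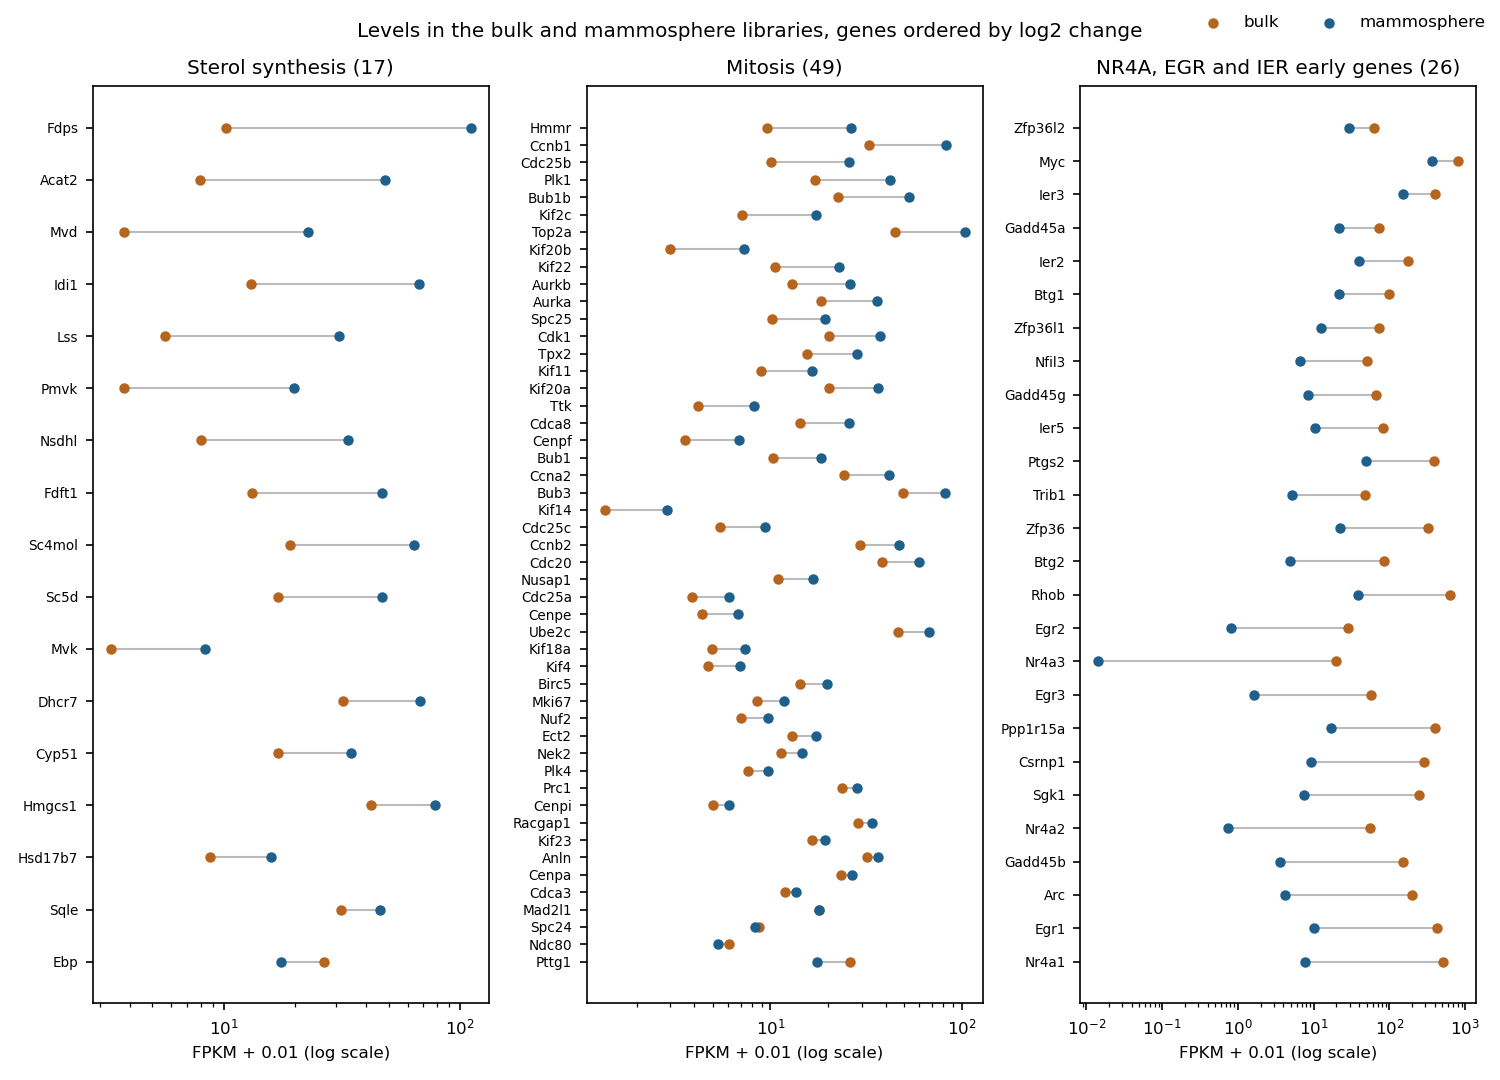
Levels of genes of sterol synthesis (17 of the 19 kept), mitosis (all 49) and the NR4A, EGR and IER early gene list (all 26) in the bulk (brown) and mammosphere (blue) libraries, as FPKM plus 0.01 on log axes, ordered by log2 change. Blue lies to the right of brown for 16 of the sterol genes shown and for all but 4 mitosis genes, and to the left for every early gene.

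Several mitochondrial folate enzymes and amino acid carriers were higher. Of 17 genes of serine synthesis and the folate cycle 5 were higher and 1 lower (median 0.53, top-100 counts 8 higher and 1 lower). Aldh1l2, the mitochondrial formyltetrahydrofolate dehydrogenase, was at 1.28 FPKM in bulk and 34.6 FPKM in mammospheres, while its cytosolic counterpart Aldh1l1 was at 3.15 and 0.747 FPKM. Mthfd2, of the same mitochondrial arm, was at 24.4 and 54.6 FPKM. Among carriers, Slc7a5 and Slc7a11, which import leucine and cystine, were at 78.1 and 14.03 FPKM in bulk and 238 and 39.2 FPKM in mammospheres, but Slc38a2, a glutamine carrier, was at 424 and 109 FPKM. Of 20 tRNA synthetases 3 were higher and none lower (median 0.35, top-100 counts 7 higher and 0 lower), led by Iars at 28.8 and 68.8 FPKM.

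ATF4, the transcription factor of amino acid shortage, and its targets lay in both directions. Of 21 genes 6 were higher and 3 lower (median 0.29). Gpt2, mitochondrial alanine transaminase, was at 3.13 FPKM in bulk and 29.4 FPKM in mammospheres, and Asns, asparagine synthetase, at 47.5 and 123 FPKM. Atf4 itself was at 330.3 and 97.1 FPKM, and its partner Ddit3 at 25.5 and 10.7 FPKM. The letters TGATGNAA (either strand), a known composite site of ATF4 with C/EBP, occurred in 6 of the 19 promoters of this list found in the RefSeq promoter table (31.6%). The share was 4.06% of all 27025 promoters in that table and 2.15% of the 8345 found for members with regular gene names. The 6 genes with the letters had a median change of 0.32 and the 13 without them 0.28. Nupr1, at 481 and 67.7 FPKM, was among the 6, so the letters were in promoters of genes that went either way.

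The 3 promoters with the largest increases among those 6 are printed because they place the match. Each runs 5′ to 3′ on the gene's strand, from 150 bases before the annotated start to 29 after it (GRCm38.p6, minus strand in each case), with matches to TGATGNAA in capitals. Positions count the start base as 0. Pycr1 (chr11:120643719-120643898), of proline synthesis, was at 1.31 and 6.66 FPKM and has its match at −103 to −96. Asns (chr6:7693180-7693359) has it at −23 to −16, and Trib3 (chr2:152344031-152344210), a pseudokinase at 10.98 and 20.3 FPKM, at 14 to 21.
Pycr1: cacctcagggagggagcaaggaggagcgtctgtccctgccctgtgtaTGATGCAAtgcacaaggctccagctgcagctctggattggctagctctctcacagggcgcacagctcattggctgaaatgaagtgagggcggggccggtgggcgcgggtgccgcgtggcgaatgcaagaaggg
Asns: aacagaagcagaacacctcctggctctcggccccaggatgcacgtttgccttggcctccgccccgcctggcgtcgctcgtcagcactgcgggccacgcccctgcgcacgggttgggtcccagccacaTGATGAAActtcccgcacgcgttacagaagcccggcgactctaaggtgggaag
Trib3: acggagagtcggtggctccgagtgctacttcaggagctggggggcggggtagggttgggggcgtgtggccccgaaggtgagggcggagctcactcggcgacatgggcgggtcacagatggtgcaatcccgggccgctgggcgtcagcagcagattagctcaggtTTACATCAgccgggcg

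Central carbon metabolism differed little. Of 22 glycolytic genes 2 were higher and 2 lower (median −0.07, positive under every scaling, top-100 counts 6 higher and 2 lower). Aldoc, an aldolase, was at 17.2 FPKM in bulk and 51.2 FPKM in mammospheres, and the lactate exporter Slc16a3 at 35.6 and 74.6 FPKM. The glucose carrier Slc2a3 was at 5.71 and 0.292 FPKM, while Slc2a1 was at 212 and 194. Of 23 TCA cycle genes none was lower and 1 was higher (median 0.05), Idh1, the cytosolic NADPH-forming isocitrate dehydrogenase, at 48.6 and 134 FPKM. G6pdx, the entry enzyme of the pentose phosphate path, was at 29.3 and 65.9 FPKM. Of 46 respiratory chain genes 2 were lower and none higher (median −0.03, positive under every scaling, top-100 counts 0 higher and 0 lower). None of 20 nucleotide synthesis genes was 2-fold apart, though 3 were higher under each scaling.

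Detoxification enzymes went both ways within families. Of 32 genes of the NRF2 and glutathione list 5 were higher and 7 lower (median 0.09, top-100 counts 9 higher and 5 lower). Gstp1, a glutathione transferase, was at 105 FPKM in bulk and 501 FPKM in mammospheres (q = 0.00128 in the authors' deposited table). Nqo1, a quinone reductase, was at 2.31 and 21.7 FPKM. Gsto1, another transferase, was at 128 and 32.6 FPKM, and Hmox1, heme oxygenase, at 74.7 and 28.0 FPKM. Of 17 metal and iron genes 1 was higher and 2 were lower (median 0.06, top-100 counts 5 higher and 1 lower), with the ferritin heavy chain Fth1 at 1793 and 3092 FPKM and the transferrin receptor Tfrc at 40.8 and 76.7 FPKM. Cp, the ferroxidase ceruloplasmin, was at 107 and 12.5 FPKM.

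Genes of cell division were moderately higher. Of 49 mitosis genes 9 were 2-fold higher and none lower (median 0.66), and 26 were higher under the top-100 scaling. Hmmr, a spindle protein, was at 9.59 FPKM in bulk and 26.2 FPKM in mammospheres. Top2a, which untangles chromosomes, was at 44.9 and 103 FPKM. Bub1b, of the spindle checkpoint, was at 22.5 and 52.9 FPKM. Pttg1, securin, was the member with the largest decrease, at 25.9 and 17.5 FPKM. Of 38 replication genes 3 were higher and none lower (median 0.49, top-100 counts 15 higher and 0 lower). Of 38 repair genes 4 were higher and none lower (median 0.47, top-100 counts 15 higher and 0 lower). Exo1, an exonuclease of mismatch repair, was at 1.47 and 5.57 FPKM, and Rad51c, of recombination, at 1.20 and 4.603 FPKM. In the authors' deposited table Ccnb1, cyclin B1, had q = 0.101.

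Promoters of several gene lists were searched for a set of known control sequences, and some are given here for the mitosis genes. Shares of the other sequences are not reported here. CHR (TTTGAA), bound by the DREAM and MuvB complexes, was in 29 of the 43 mitosis promoters found (67.4%), against 12.0% of the 8345 promoters of members with regular names and 18.1% of all promoters in the table. CCAAT, bound by NF-Y, was in 32 of 43 (74.4%), against 39.2% and 37.9%. It was also in 10 of 19 promoters of the ATF4 list (52.6%) and in 3 of 11 of the AP-1 list (27.3%). Both strands were searched, in the 300 bases from 250 before to 49 after the start. Mitosis genes with CHR letters had a median change of 0.73 and 7 of 29 were 2-fold higher. The 14 without them had a median of 0.47, with 2 higher. A match describes letters and not a bound site, and a promoter without a match shows nothing about the factor.

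The 3 mitosis genes with the largest increases among those with both motifs inside the printed stretch are given from −150 to 29 (GRCm38.p6, all on the minus strand), with CHR and CCAAT letters, read on either strand, in capitals. Hmmr (chr11:40733408-40733587) holds 4 CCAAT matches and a CHR match at 8 to 13. Top2a (chr11:99024160-99024339) holds 4 CCAAT matches and CHR at −23 to −18. Kif22 (chr7:127042391-127042570), a chromokinesin at 10.6 and 22.7 FPKM, holds 1 CCAAT match and CHR at −17 to −12.
Hmmr: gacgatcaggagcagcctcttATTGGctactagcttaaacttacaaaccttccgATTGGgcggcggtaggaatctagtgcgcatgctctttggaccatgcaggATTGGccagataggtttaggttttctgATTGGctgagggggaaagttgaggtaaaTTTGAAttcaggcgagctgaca
Top2a: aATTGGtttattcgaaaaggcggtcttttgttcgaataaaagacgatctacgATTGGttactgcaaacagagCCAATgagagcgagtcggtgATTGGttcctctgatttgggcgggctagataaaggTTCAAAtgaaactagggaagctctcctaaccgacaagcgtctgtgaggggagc
Kif22: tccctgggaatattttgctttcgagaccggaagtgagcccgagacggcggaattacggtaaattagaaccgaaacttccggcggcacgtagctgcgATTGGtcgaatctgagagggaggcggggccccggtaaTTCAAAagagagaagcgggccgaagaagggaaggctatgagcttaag

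Replication-dependent histones, whose mRNAs mostly lack a poly(A) tail and are poorly caught by oligo-dT, did not follow the other division genes. Of 29 kept 12 were lower and none higher (median −0.79), with Hist1h1c at 28.9 FPKM in bulk and 9.91 FPKM in mammospheres. In mammospheres 10 of the 29 were under 1 FPKM and none was in bulk, so the keeping rule fixed the direction of those 10. Levels were low, with sums of 167 FPKM in bulk and 47.5 FPKM in mammospheres, and the authors tested 2 of the 29. The histone genes are close copies, so reads may have been split among them. In the p53 and cell cycle inhibitor list 5 of 29 were lower and 1 higher (median −0.13, positive under every scaling, top-100 counts 5 higher and 3 lower). Those counts are close to the shares of all members (17.3% lower and 3.54% higher). Plk2, a p53 target, was at 211 and 11.5 FPKM, and Cdkn1a (p21) at 242 and 170.3 FPKM. Trp53 was at 102 and 89.98 FPKM and Zmat3 at 10.0 and 22.6 FPKM.

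Mdm2, the ubiquitin ligase that degrades p53, was the second most abundant transcript of the bulk library among the 10433 members with a single regular name. It was at 4121 FPKM in bulk and 1419 FPKM in mammospheres (rank 11), against median members at 12.5 and 10.2 FPKM. In the authors' deposited table Mdm2 had q = 0.777. The genes next to it on chromosome 10 (mm9) were looked at after this value was seen. Slc35e3, the next kept gene, was at 433 and 161 FPKM, and Nup107, a nuclear pore subunit after it, was at 1094 and 1093 FPKM, rank 36 and 17. Mdm2 and Slc35e3 thus had log2 changes of −1.54 and −1.42, and Nup107 was level. On the far side of Mdm2, Cpm was at 65.7 and 64.7 FPKM and Cpsf6 at 25.6 and 27.2 FPKM. Beyond Rap1b (119 and 71.2 FPKM), Mdm1 was at 2.21 and 2.58 FPKM. The copy number of this region was not measured here.

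**Figure D5:**
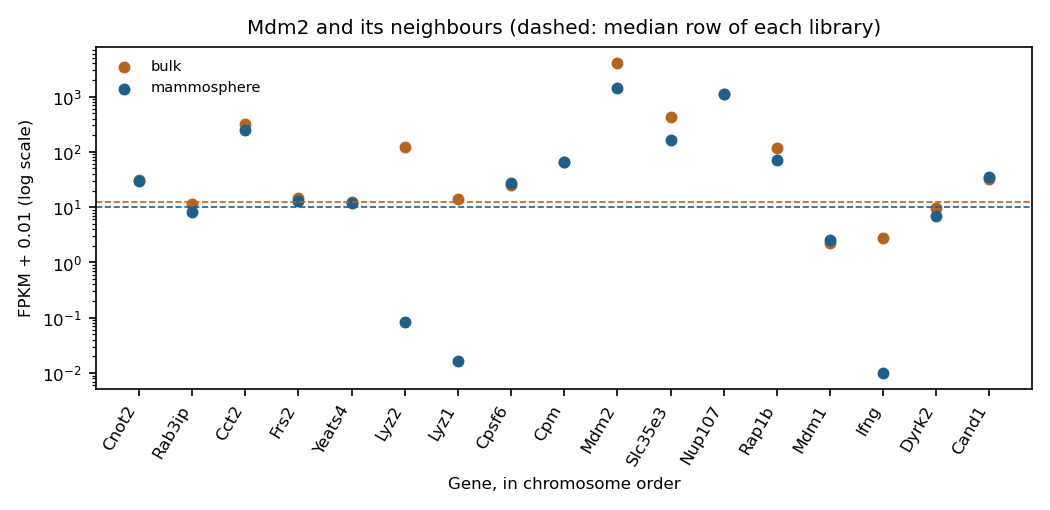
Levels (FPKM plus 0.01, log axis) of the 17 kept, regularly named genes around Mdm2 on chromosome 10 in chromosome order, for the bulk (brown) and mammosphere (blue) libraries, with dashed lines at the median member of each. Mdm2, Slc35e3 and Nup107 lie at 161 to 4121 FPKM in both libraries, and Lyz2, Lyz1 and Ifng are the genes near 0 in mammospheres.

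Most genes of chromatin complexes were under 2-fold apart on the scale with 1 FPKM added. Cbx8 was at 3.46 FPKM in bulk and 1.48 FPKM in mammospheres (log2 −0.85), and Wdr5 at 36.4 and 43.0 FPKM (log2 0.23). Without the added 1 FPKM, the Cbx8 values were more than 2-fold apart. Of 30 Polycomb genes 2 were lower and none higher (median −0.15, positive under every scaling, top-100 counts 3 higher and 2 lower). Rybp, a subunit of noncanonical PRC1, had the largest difference on that scale, at 43.5 FPKM in bulk and 14.01 FPKM in mammospheres. Cbx2, the paralogue of Cbx8, was at 0.255 and 1.13 FPKM, where the added 1 FPKM also narrows the change. None of 21 genes of the H3K4 methylation complexes and demethylases was 2-fold apart, though 2 were higher with upper quartiles set equal. Of 27 SWI/SNF, NuRD and deacetylase genes 2 were lower (median −0.31, and 0.08 under the top-100 scaling, top-100 counts 1 higher and 2 lower), led by Sirt1, an NAD-dependent deacetylase, at 25.6 and 3.64 FPKM. Among 13 DNA methylation genes Dnmt1 and Uhrf1, which copy methylation at replication, were higher, at 23.8 and 19.2 FPKM in bulk and 51.2 and 55.3 FPKM in mammospheres.

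Ribosomal protein and splicing genes had slightly negative medians, but no larger a share 2-fold lower than all members (17.3%). Of 72 ribosomal protein genes 11 were 2-fold lower and none higher (median −0.60). Under the top-100 scaling 1 was lower and the median was −0.18. Their summed level was 52207 FPKM in bulk and 37315 FPKM in mammospheres. Ribosomal protein genes have many processed pseudogenes, so single values are uncertain. Eef1a1, the elongation factor, was the most abundant transcript in both libraries, at 6715 and 4225 FPKM. Splicing genes were lower by 2-fold in 3 of 34 cases (median −0.42, and 0.004 under the top-100 scaling, top-100 counts 1 higher and 2 lower). Among them the kinase Clk1 was at 86.9 and 24.6 FPKM.

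Genes of cell death, lysosomes and the wider Myc network held few 2-fold increases, as did all members (3.54% higher and 17.3% lower). Of 31 apoptosis genes 10 were lower and none higher (median −0.51, top-100 counts 2 higher and 9 lower). Mcl1, a short-lived survival protein, was at 119 FPKM in bulk and 22.4 FPKM in mammospheres. Bax, a pore-forming death protein, was at 84.0 and 123 FPKM. Pmaip1, the death activator Noxa, was at 8.84 and 0.590 FPKM. Of 32 lysosomal genes 5 were lower and 1 higher (median −0.39, and 0.01 under the top-100 scaling). Ctsl, the abundant cathepsin L, was at 535 and 424 FPKM, while Ctsk, a cathepsin of bone-resorbing and stromal cells, was at 4.97 and 0.0885 FPKM. The 1 higher lysosomal gene was Cd68. Of 10 Myc network genes 3 were lower and none higher (top-100 counts 0 higher and 1 lower), the antagonist Mxd1 at 23.2 and 3.95 FPKM among them, and the partner Max was at 42.8 and 36.1 FPKM. The median of that list (−0.27) turned positive under the last 2 scalings.

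Annexins, S100 proteins and enzymes of arginine and polyamines were lower or level with 1 exception. Of 20 annexin and S100 genes 9 were lower and none higher (median −0.85, top-100 counts 1 higher and 5 lower). Anxa8 was at 127 FPKM in bulk and 0.327 FPKM in mammospheres, and S100a6 at 1292 and 829.8 FPKM. Of 14 arginine and polyamine genes 5 were lower and 1 higher (median −0.66, top-100 counts 1 higher and 3 lower). Ass1, which makes the precursor of arginine, was at 19.1 and 2.13 FPKM. Odc1, the first polyamine enzyme and a known Myc target, was at 211 and 132 FPKM, under 2-fold apart. Nos2, inducible nitric oxide synthase, was the higher gene, at 2.81 and 28.7 FPKM, while Arg1, which competes with it for arginine, was near absent in mammospheres as given above.

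Transcription factors of mammary lineage and surface markers used to sort mammary stem cells were lower or level. Of 19 lineage factors 10 were lower and none higher (median −1.32). Sox9, a luminal progenitor factor, was at 72.3 FPKM in bulk and 4.55 FPKM in mammospheres, and Snai1, of epithelial-mesenchymal transition, at 57.0 and 8.99 FPKM. Gata3, the luminal factor, was at 24.98 and 18.5 FPKM. Of 17 surface markers 8 were lower and none 2-fold higher (median −0.99, top-100 counts 1 higher and 5 lower). Cd24a was at 94.98 and 24.3 FPKM, Cd44 at 178 and 110.0, and Ly6a (Sca-1) at 207 and 104 FPKM. In the nuclear receptor and clock list 10 of 29 were lower and none higher (median −0.43, top-100 counts 1 higher and 9 lower), with the clock repressor Bhlhe40 at 128 and 8.02 FPKM and its activator Arntl at 8.16 and 12.8. Kappa-casein (Csn3), a milk protein, was at 18.6 and 109.6 FPKM, whereas Csn2, beta-casein, had 7.92 FPKM in bulk cells and was listed at 0 in mammospheres.

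Changes were not spread evenly over the chromosomes. Among 6808 members with regular names and at least 5 FPKM in both libraries the median change was −0.19. It was −0.45 over the 323 genes of chromosome 6 and −0.40 over the 292 of chromosome 15. It was −0.00 over the 600 of chromosome 2 and −0.03 over the 375 of chromosome 8, and between −0.27 and −0.12 on the others. On chromosome 6, 69.3% of genes lay below the overall median, and 36.8% on chromosome 2. In consecutive blocks of 30 genes, the medians on chromosome 6 ran from −0.76 to −0.24 over 11 blocks, and on chromosome 2 from −0.13 to 0.18 over 20 blocks. Block medians ran from −0.16 to 0.11 over 12 blocks on chromosome 8 and from −0.61 to −0.14 over 10 blocks on chromosome 15. All blocks of chromosomes 2, 6 and 8 thus lay on 1 side of the overall median, but not all of chromosome 15. Only these chromosomes, which had the lowest and highest medians, were split into blocks. Xist, the RNA that coats the inactive X, was at 19.7 FPKM in bulk and 0.0109 FPKM in mammospheres, while X-linked genes had a median of −0.27, and Y-linked genes were at or near 0 in both.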

How the data were processed

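RNA of bulk and mammosphere MMTV-Myc cells was selected with oligo-dT and read as single ends, 1 library per group. The deposited table holds FPKM values that the authors made per gene and library, and p-values and q-values of the authors' test. Per the submitters' processing notes the genome build was mm9 and the tools included Cuffdiff 0.0.7, Cufflinks 1.3.0, TopHat 1.4.0 and FastQC 0.10.0. The scaling of FPKM values between libraries was not stated in the labels or headers. No whole-read steps were found in the values, so the depth is unknown and no interval or floor is given.

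From these values log2((mammosphere + 1)/(bulk + 1)) was computed in Python 3.11.15 with numpy 2.4.6 and pandas 2.3.3, and figures were drawn with matplotlib 3.10.9. The counting code was tested on simulated data. A gene was called higher or lower at 2-fold on that scale, without a test. Gene lists (83, 81 of them with at least 3 members) were described by counts and medians. The members and lists were chosen with earlier results of these data known. Promoters are RefSeq, build GRCm38.p6, matched by symbol, and coordinates of the table are mm9. Promoter shares are given only for gene groups with at least 80% of promoters found. Sterol and SREBP genes, replication genes, the NR4A, EGR and IER list, serine genes and the sets of all higher and all lower genes fell under that, so the check was void for them.

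Named genes were the 20 largest increases and decreases with at least 5 FPKM in the higher library, the 15 largest each way among untested members, the 15 most abundant members per library, the 10 highest members in 1 library listed at 0 in the other, per list up to 8 by size of change and 3 by level, and Cbx8 and Wdr5. Adamts9, Arntl, C3, Ccl20, Cd44, Col4a2, Cpm, Cpsf6, Cxcl10, Dusp6, Ebp, Epcam, Etv5, Fosl1, Gata3, Hmox1, Hsf1, Id1, Ikbke, Itgam, Kif22, Klf13, Lamc1, Ly6a, Mafg, Mdm1, Notch1, Nup107, Oas3, Plau, Ppard, Pttg1, Rap1b, Slc2a1, Slc35e3, Snord43, Spry2, Srebf1, Srebf2, Tead1, Tln1, Trib3, Trp53, Wwtr1, Yap1 and Zfp36 were chosen after their values were seen. Alternatives were other pseudocounts, minimums, fold limits and scalings, tested rows only, the authors' q, and rows of a symbol summed. Leaving out markers of other cell types was chosen after seeing the data. Duplicate symbols were kept as separate rows. Some genes counted in the lists are not reported here by name.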

Additional observations from a re-analysis of the deposited data

How the results depend on the processing

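Lower genes outnumbered higher genes under every alternative run. The higher and lower counts (411 and 2002) became 668 and 2405 with 0.1 FPKM added, 143 and 960 with 5 FPKM added, 151 and 654 over tested rows only, 1144 and 3567 at a 1.5-fold limit, and 61 and 643 at a 4-fold limit. Higher genes numbered 653 with changes centred on the median gene, 822 with upper quartiles set equal and 1032 with equal sums outside the 100 most abundant rows, and their share of genes 2-fold apart went from 17.0% to 29.7%, 34.5% and 41.3%. Calls of the authors' deposited table at q under 0.05 were 70 higher and 411 lower, over fewer genes tested. No minimum, a minimum of 5 FPKM, summed rows of a symbol and leaving out other cell types' markers kept both counts within 1.5 times.

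Of 81 list medians, 7, 9 and 12 changed sign under the 3 scalings, and none of those was 0.5 or more in size. With 0.1 and 5 FPKM added, 16 and 19 medians moved by more than 0.58, none with a reversed direction. Every value rests on 1 library per group at unknown depth, so no difference has a replicate check. No paired analysis was possible because each group has 1 library.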

Other observations

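The share of genes at least 2-fold lower varied with level and length. It was 46.6% of members with a mean under 1 FPKM, 12.7% of those from 10 to 30 FPKM and 26.1% of those at 300 FPKM or more. Members needed 1 FPKM in either library, so any with a mean under 1 FPKM was under 1 FPKM in the other. The first share is therefore shaped by the keeping rule and is no trend with level. The other shares were not explained. By the span of the locus in the authors' table it was 27.7% under 5 kb and 15.7% at 80 kb or more.

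Among the rows set aside for too many fragments, Hspa1a and Hspa1b, the inducible Hsp70 genes, were listed at 0 in bulk and at 14.6 and 16.2 FPKM in mammospheres. These entries carry no usable estimate in the authors' table. Among the 29 failed rows, Nfatc2, a calcium-regulated transcription factor chosen after its values were seen, was at 18.1 FPKM in bulk and 1.76 FPKM in mammospheres.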
